A study of Mus musculus with 14 samples.

Results

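Gene expression at rest was compared between E0771 and MC38, a pair of transplantable mouse tumour cell lines of the same C57BL6 strain. E0771 came from a mammary carcinoma and MC38 from a colon adenocarcinoma. The libraries were chosen by their labels alone: both E0771 libraries and both MC38 libraries of cells given the control agonist, 4 of the 14 libraries of the study. The other 10 libraries were cells of the same lines given a RIG-I agonist (2 for each line) and cells of CT26, a BALB/c colorectal carcinoma line (3 with each agonist). RIG-I, encoded by Ddx58, is a cytosolic sensor of viral RNA, and the labels do not give the composition of either agonist. In every group 100000 cells were seeded per well and received 0.5 ug/ml of agonist for 24 h, so that "at rest" here means cells exposed to the control agonist and not untreated cells. E0771 was grown in RPMI and MC38 in DMEM, both with fetal bovine serum. The cell line, its tissue of origin, its medium and the table in which its libraries were deposited change together and cannot be told apart. The labels do not state whether the libraries of a group were independent cultures. The p-values therefore weigh differences against library-to-library spread alone, and that spread may be technical.

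As background, tumour cell lines can keep or lose the genes that mark their tissue of origin. Epithelial cells are held together by cadherin 1 and claudins and filled with keratins, whereas mesenchymal cells carry vimentin and a different set of adhesion proteins. HOX genes are switched on in nested domains along the body axis and are often kept by cultured cells. Type I interferon binds the receptor of Ifnar1 and Ifnar2 and activates a transcription factor complex that includes Stat2 and Irf9, which binds the interferon-stimulated response element (ISRE) in the promoters of antiviral genes. Many cells hold these genes at a low standing level without infection, the tonic interferon signature.

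The E0771 libraries held 12801783 and 12413347 estimated counts, and the MC38 libraries 15576426 and 13021023. Levels are given as CPM, counts scaled to a common library size after adjustment by the trimmed mean of M-values, replicate 1 before replicate 2, and differences as log2 of E0771 over MC38 with the standard error (SE) of the fit. A gene was called at a Benjamini-Hochberg adjusted p under 0.05. The E0771 replicates were further apart than the MC38 replicates, with a biological coefficient of variation of 0.183 against 0.029 and a median absolute log2 difference between replicates of 0.23 against 0.08. Mitochondrial transcripts made up 2.82% and 5.8% of the E0771 libraries and 5% and 4.79% of the MC38 libraries.

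The lines differed over a large part of the transcriptome. Of 12638 genes tested, 3865 (30.6%) were higher in E0771 and 4119 (32.6%) were higher in MC38, and the median difference over all genes was -0.02. Differences of at least 4-fold were found for 830 genes higher in E0771 (6.57%) and for 1394 genes higher in MC38 (11%). The libraries of the lines did not overlap for 85% of the genes tested, among them every gene called. A lack of overlap therefore adds nothing to a call. These shares are the background for each list below, since a list with about 30% of its members called in each direction looks like the genes at large. Leaving out an MC38 library lowered the counts by more than 1.5 times, to 2195 higher in E0771 and 2535 higher in MC38 without replicate 1 and to 2158 and 2568 without replicate 2. Calls kept in all 4 fits that left out a library numbered 1945 in E0771 (15.4%) and 2362 in MC38 (18.7%).

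**Figure D1:**
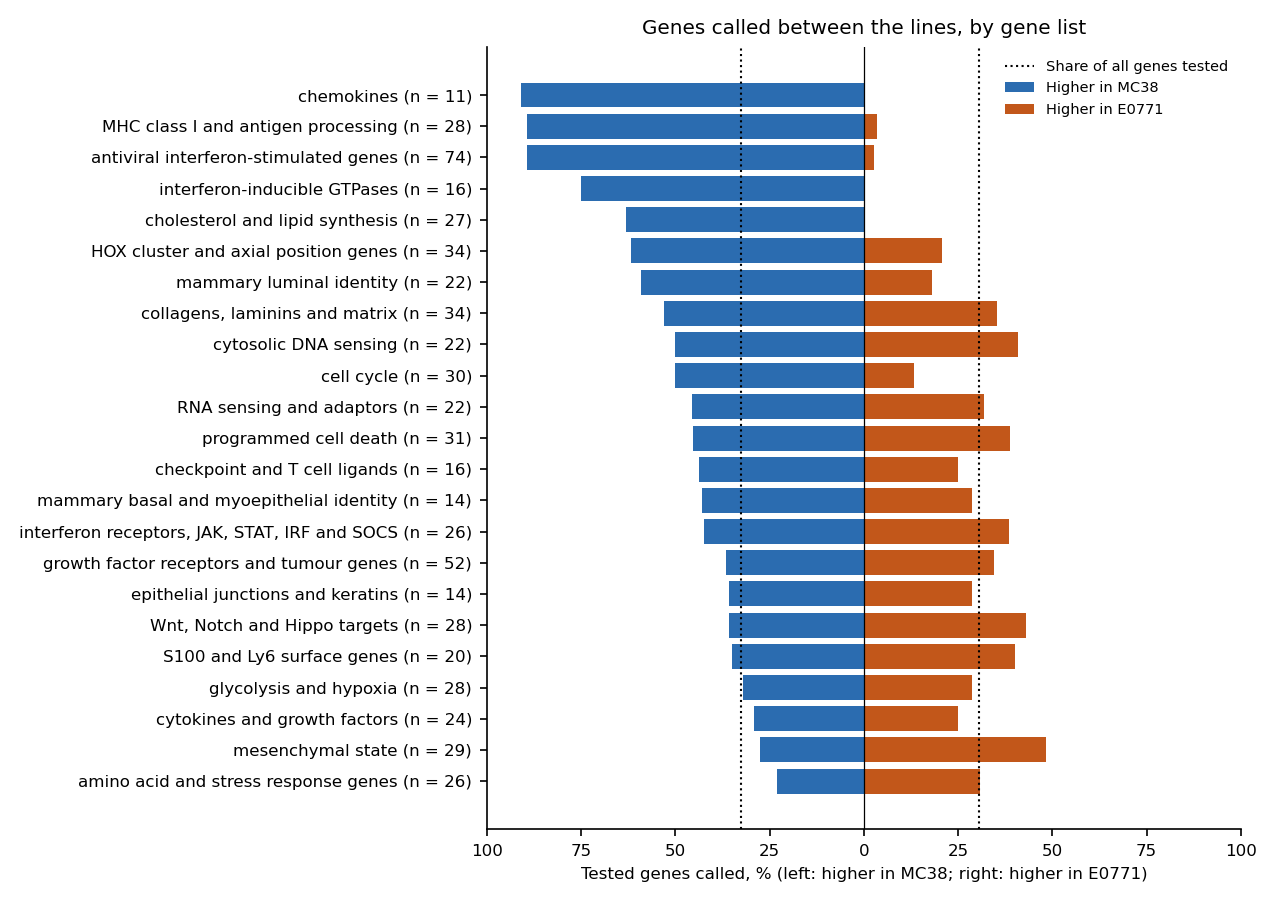
For each gene list with at least 10 genes tested, the bars give the percentage of tested genes called higher in MC38 (left, blue) and higher in E0771 (right, orange) in the 4 control agonist libraries, and the dotted lines give the same shares over all 12638 genes tested (32.6% and 30.6%). Chemokines, MHC class I genes, antiviral interferon-stimulated genes and interferon-inducible GTPases stand farthest to the MC38 side, and the glycolysis, cytokine, epithelial junction and growth factor receptor lists lie near the dotted lines.

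Tissue identity was checked first against marker lists. Neither line carried the defining genes of the colon epithelium: the homeobox factors Cdx1 and Cdx2, which set intestinal identity, and Hnf4a had no counts in any of the 4 libraries. Of 50 genes of colon and intestinal identity, 3 were at 1 CPM or more in both E0771 libraries and 5 in both MC38 libraries. Vil1, a microvillus protein, Lgr5, a stem cell receptor, the mucin Muc2, Krt20, Cdh17 and Gpa33 were all under 1 CPM in every library. The label of MC38 as a colon line is therefore not matched by colon markers in these libraries, and the lines are called by their names below.

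Of 8 colon list genes with enough counts to test, 4 were higher in MC38 and 3 in E0771, with a median difference of -1.06, and without either MC38 library the counts were 1 and 1. Ephb3, a receptor tyrosine kinase of intestinal crypts, chosen after its values were seen, was at 0.911 and 1.44 CPM in E0771 and 4.94 and 4.65 CPM in MC38 (log2 difference -2.08, SE 0.34, adjusted p = 0.00448). Slc26a3, an intestinal chloride exchanger, was at 5.69 and 5.35 CPM in E0771 and 0.375 and 0.221 CPM in MC38 (log2 difference 4.10, SE 0.37, adjusted p = 0.000762). The progenitor factor Sox9 was at 49.9 and 67.4 CPM in E0771 and 33.4 and 33.6 CPM in MC38 (log2 difference 0.76, SE 0.17, adjusted p = 0.0122). The call of Sox9 was lost without MC38 replicate 1 (adjusted p = 0.0556) or 2 (0.0502).

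Several defining mammary genes were also absent or low in E0771. Of 44 luminal genes, 13 were at 1 CPM or more in both E0771 libraries and 18 in both MC38 libraries. Their summed level was 973 and 829 CPM in E0771 and 720 and 728 CPM in MC38, and the E0771 sum includes the keratin gene Krt8 described below. The median level of the 44 genes was 0.152 and 0.16 CPM in E0771 and 0.375 and 0.442 CPM in MC38. The progesterone receptor gene Pgr had no counts in any library, and the prolactin receptor Prlr and the alveolar factor Elf5 were under 1 CPM throughout. Of 22 luminal genes tested, 13 were higher in MC38 and 4 in E0771, with a median difference of -0.97. Esr1, the oestrogen receptor, was at 0.911 and 1.52 CPM in E0771 and 6.75 and 7.15 CPM in MC38 (log2 difference -2.56, SE 0.33, adjusted p = 0.0021). The luminal regulators Foxa1 (1.44 and 0.718 CPM in E0771 against 5.75 and 5.6 CPM in MC38) and Gata3 (0.152 and 0.399 against 2.06 and 2.06 CPM) were likewise higher in the line from colon. Erbb3, a partner receptor of Erbb2, was at 8.35 and 7.74 CPM in E0771 and 37.9 and 42.2 CPM in MC38 (log2 difference -2.36, SE 0.13, adjusted p = 0.000206).

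A keratin went the other way. Krt8, the simple-epithelium keratin of luminal cells, was at 271 and 216 CPM in E0771 and 0.188 and 0.369 CPM in MC38 (log2 difference 9.71, SE 0.26, adjusted p = 7.39e-05). Its pairing partner Krt18 was listed at 0 in all 4 libraries. Trps1, a zinc-finger factor of breast epithelium, was also higher in E0771, at 30.8 and 50.6 CPM against 13.5 and 14.3 CPM (adjusted p = 0.00567). Without E0771 replicate 2 the number of luminal genes higher in E0771 was 7 in place of 4.

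The basal and myoepithelial list split in both directions, with 4 genes higher in E0771 and 6 higher in MC38 of 14 tested. Of 32 listed, 9 were at 1 CPM or more in both E0771 libraries and 12 in both MC38 libraries. The summed level was 491 and 487 CPM in E0771 and 298 and 305 CPM in MC38. Basal keratin genes Krt5 and Krt14 had no counts in any library. Acta2, smooth muscle actin, was at 40.8 and 16.7 CPM in E0771 and 0.0625 and 0.369 CPM in MC38 (log2 difference 7.03, SE 0.79, adjusted p = 0.00139). Versican, the matrix proteoglycan encoded by Vcan, was at 114 and 166 CPM in E0771 and 2.38 and 1.92 CPM in MC38 (log2 difference 5.96, SE 0.28, adjusted p = 0.000149). In the other direction, the growth factor gene Nrg1 was at 0.228 and 0.16 CPM in E0771 and 5.31 and 5.46 CPM in MC38 (log2 difference -4.78, SE 0.38, adjusted p = 0.000535). No library of one line reached the range of the other for these 3 genes, which holds for every gene called.

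Epithelial adhesion genes were low in both lines. Epcam had no counts in any library, and Cdh1, cadherin 1, stayed under 1 CPM in all 4. Of 14 genes of epithelial junctions and keratins that could be tested, 4 were higher in E0771 and 5 in MC38. Ovol2, a factor that keeps cells epithelial, was at 8.56 and 7.82 CPM in MC38 with no counts in E0771, at least 70.5-fold higher in MC38. The embryonic claudin gene Cldn6 was at 13.4 and 13.5 CPM in MC38 with no counts in E0771, at least 115-fold higher in MC38. E0771 in turn carried Pkp2, a desmosome protein (23.4 and 8.38 CPM against 0.25 and 0.0737 CPM, adjusted p = 0.00211). The serine protease inhibitor gene Spint2 was at 12.7 and 15.4 CPM in E0771 and 0.125 and 0 CPM in MC38, a ratio of 207 with a counting interval from 56.9 to 1720 (95%, counting error only).

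Promoters of an epithelial gene on each side are printed to show the CACCTG letters that Zeb and Snail factors are known to bind, since Zeb1 differed between the lines (below). Sequences are RefSeq promoters of GRCm38.p6, from 250 bases before to 50 bases after the start, read 5′ to 3′ along the gene, with CACCTG on either strand in capitals. The Krt8 window is chr15:102004293-102004592 (minus strand), with 1 match that begins at position -111 from the start. The Cldn6 window is chr17:23679115-23679414 (plus strand), with 2 matches.
Krt8: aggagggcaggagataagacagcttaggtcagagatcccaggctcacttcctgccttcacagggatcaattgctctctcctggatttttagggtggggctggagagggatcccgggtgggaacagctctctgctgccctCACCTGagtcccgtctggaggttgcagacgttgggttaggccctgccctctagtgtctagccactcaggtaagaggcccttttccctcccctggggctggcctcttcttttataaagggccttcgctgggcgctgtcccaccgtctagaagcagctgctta
Cldn6: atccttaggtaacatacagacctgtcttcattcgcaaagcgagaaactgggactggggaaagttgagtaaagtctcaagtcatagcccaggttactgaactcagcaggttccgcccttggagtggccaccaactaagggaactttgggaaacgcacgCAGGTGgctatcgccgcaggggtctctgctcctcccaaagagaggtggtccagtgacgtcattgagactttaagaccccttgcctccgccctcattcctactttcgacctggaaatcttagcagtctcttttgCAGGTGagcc
Of 26 genes of the epithelial list with a promoter in the table, 20 (76.9%) held CACCTG, against 6098 of all 27025 genes with a promoter (22.6%). A match describes the letters in the window and is not evidence of binding.

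Both lines expressed mesenchymal genes, with 24 of 34 at 1 CPM or more in E0771 and 25 in MC38. Of 29 tested, 14 were higher in E0771, 8 were higher in MC38 and 7 were not called. Zeb1, a repressor of epithelial genes, was at 56.3 and 68.8 CPM in E0771 and 8.06 and 9.51 CPM in MC38 (log2 difference 2.78, SE 0.16, adjusted p = 0.000248). Its relative Zeb2 was at 83.4 and 87.4 CPM in E0771 and 29 and 31 CPM in MC38 (log2 difference 1.46, SE 0.09, adjusted p = 0.000304). Pdgfrb, a growth factor receptor of mesenchymal cells, was at 56.8 and 70.8 CPM in E0771 and 8.25 and 8.48 CPM in MC38 (log2 difference 2.88, SE 0.15, adjusted p = 0.0002). All 3 genes were higher in both E0771 libraries than in either MC38 library, and no called gene had an overlap. Nt5e, the ecto-nucleotidase CD73 that makes adenosine, was at 35.9 and 43.6 CPM in E0771 and 0.0625 and 0 CPM in MC38, a ratio of 1170 with a counting interval from 210 to 46300. Vimentin, encoded by Vim, was at 3020 and 2760 CPM in E0771 and 1940 and 1930 CPM in MC38 (log2 difference 0.53, SE 0.13, adjusted p = 0.0174), a call that was lost without MC38 replicate 1 (adjusted p = 0.288) or 2 (0.282).

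Some hallmark mesenchymal genes were lower in E0771, several of them at or near 0. Fibronectin, encoded by Fn1, was at 0.228 and 0.16 CPM in E0771 and 787 and 822 CPM in MC38 (log2 difference -12.00, SE 0.19, adjusted p = 4.9e-05). Cadherin 2, encoded by Cdh2, had no counts in E0771 and was at 35.4 and 38.9 CPM in MC38, at least 317-fold higher in MC38. The forkhead factor Foxc2 was at 7.38 and 7.82 CPM in MC38 with no counts in E0771 (at least 64.9-fold), and Twist2 was at 31.2 and 29.2 CPM in E0771 and 65.7 and 60.2 CPM in MC38 (log2 difference -1.11, SE 0.10, adjusted p = 0.000692).

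Matrix genes differed in both directions, and of 44 listed 23 were at 1 CPM or more in E0771 and 28 in MC38. Of 34 collagen, laminin and matrix genes tested, 18 were higher in MC38 and 12 in E0771, 11 and 8 of them by at least 4-fold. The basement membrane protein nidogen came from a different gene in each line: Nid1 was at 165 and 219 CPM in E0771 and 0.0625 and 0.221 CPM in MC38 (log2 difference 10.33, SE 0.35, adjusted p = 8.8e-05). Nid2 had no counts in E0771 and was at 29.7 and 28.4 CPM in MC38, at least 249-fold higher in MC38. Fbln2, a fibulin, was at 230 and 153 CPM in E0771 and 0.875 and 1.18 CPM in MC38 (log2 difference 7.49, SE 0.32, adjusted p = 0.000127). Each of these genes was at 1.18 CPM or less in the other line. Sparc, a secreted matrix regulator, was at 629 and 848 CPM in E0771 and 142 and 133 CPM in MC38 (log2 difference 2.37, SE 0.17, adjusted p = 0.000456). MC38 carried Fbn1, the microfibril protein, at 93 and 96.9 CPM against 0 and 0.319 CPM in E0771 (log2 difference -9.22, SE 0.38, adjusted p = 0.000121). Osteopontin, the secreted phosphoprotein encoded by Spp1, was at 47.4 and 21.1 CPM in E0771 and 1820 and 1730 CPM in MC38 (log2 difference -5.74, SE 0.43, adjusted p = 0.000479). The number of matrix genes higher in E0771 was 7 in place of 12 without either MC38 library.

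**Figure D2:**
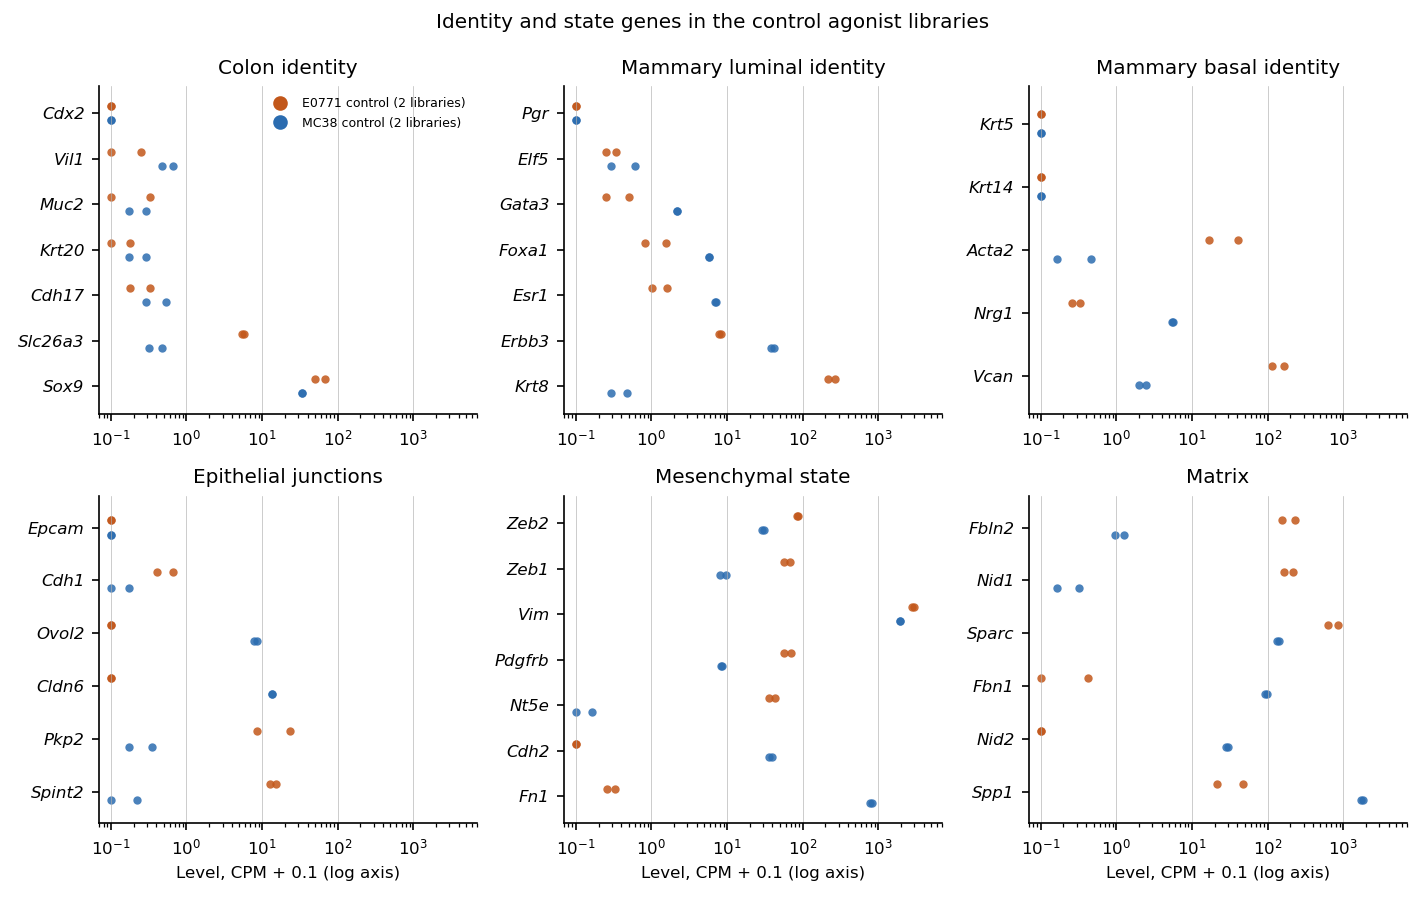
Each point is 1 control agonist library of E0771 (orange) or MC38 (blue), placed by its level in CPM plus 0.1 on a log axis, so that genes with no counts sit at the left end. Most colon markers, Pgr, Elf5, Krt5 and Krt14 are under 1 CPM in both lines, Krt8, Vcan, Nid1 and Nt5e are carried by E0771, and Fn1, Cdh2, Nid2, Fbn1, Cldn6 and Ovol2 by MC38.

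HOX and other axial genes also separated the lines, most of them toward MC38. Of 34 tested, 21 were higher in MC38 (15 by at least 4-fold) and 7 in E0771, with a median difference of -1.68. The Hoxa cluster carried much of this. Hoxa7 had no counts in E0771 and was at 50.8 and 55.4 CPM in MC38, at least 453-fold higher in MC38. Hoxa9 was at 0.152 and 0.0798 CPM in E0771 and 30.2 and 32.1 CPM in MC38, a ratio of 266 with a counting interval from 90.8 to 1290. Hoxa10 was measurable in both lines, at 7.59 and 8.94 CPM in E0771 and 25.8 and 24.8 CPM in MC38 (log2 difference -1.66, SE 0.15, adjusted p = 0.000685). The end of the Hoxd cluster behaved unlike its middle. Hoxd13, which marks the most posterior and distal domains, had no counts in E0771 and was at 26.8 and 29.1 CPM in MC38, at least 239-fold higher in MC38. Hoxd8 was at 42.2 and 39.7 CPM in E0771 and 10.7 and 10.5 CPM in MC38 (log2 difference 1.89, SE 0.11, adjusted p = 0.000231), and Hoxd10 at 30.3 and 27 CPM against 12.7 and 9.22 CPM (log2 difference 1.33, SE 0.19, adjusted p = 0.00275). Hoxc10 was higher in E0771 as well, at 36.5 and 32.4 CPM against 10.1 and 11.4 CPM (log2 difference 1.64, SE 0.14, adjusted p = 0.000599). Pitx1, a hindlimb factor, had no counts in E0771 and was at 13.1 and 12.3 CPM in MC38, at least 109-fold higher in MC38. Hoxb13, a gene of the hindgut and prostate, was near the same level in both, at 8.5 and 8.54 CPM in E0771 and 6.25 and 5.16 CPM in MC38 (log2 difference 0.52, SE 0.20, adjusted p = 0.0695). It was called without E0771 replicate 1 or 2, in fits that drew their spread from the MC38 pair alone.

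**Figure D3:**
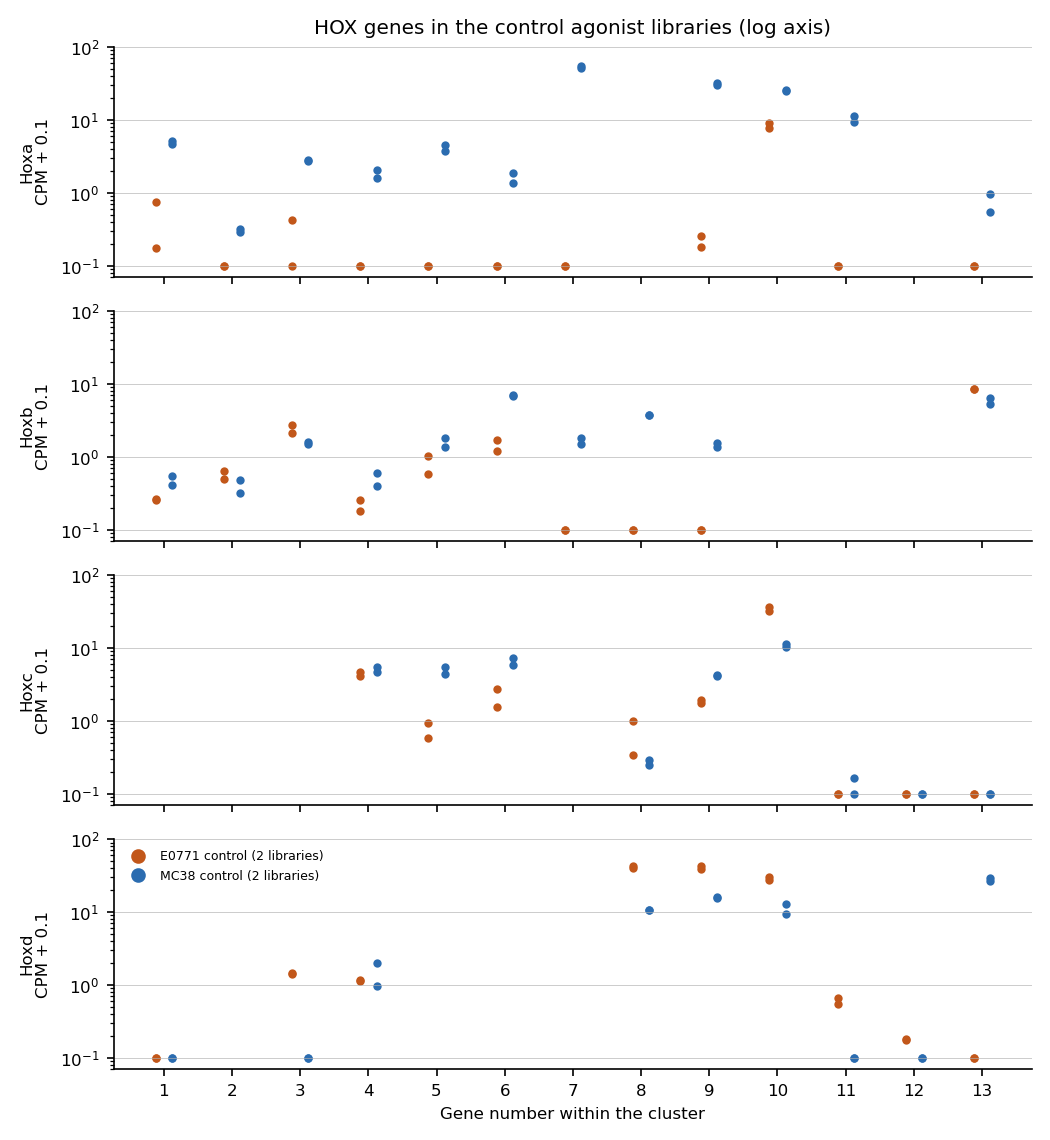
Levels of the HOX genes in the 4 control agonist libraries (CPM plus 0.1 on a log axis; orange, E0771; blue, MC38), by cluster and by gene number within the cluster. In the Hoxa panel the MC38 points lie above the E0771 points at every gene number shown, whereas Hoxc10 and Hoxd8 to Hoxd10 lie higher in E0771.

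A set of protein-coding genes was read in one line only. Of 9743 protein-coding genes at 5 CPM or more in both MC38 libraries, 201 (2.06%) had no count in either E0771 library. In the other direction, 34 of 9400 genes (0.362%) at 5 CPM or more in both E0771 libraries had no count in MC38. The cut of 5 CPM was set after the values were seen, and these counts are a description. The RIG-I agonist libraries of E0771, which did not enter the choice, held no count for 142 of the 201 genes and 3 or fewer for 193 of them. For the 34 genes absent from MC38, its RIG-I agonist libraries held 3 or fewer counts for 32.

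The largest of these differences was Slco4a1, an organic anion transporter, with no counts in E0771 and 924 and 953 CPM in MC38, at least 8030-fold higher in MC38. Arsb, a lysosomal sulfatase, had no counts in E0771 and was at 155 and 157 CPM in MC38 (at least 1340-fold). Irs1, which passes on the insulin signal, had no counts in E0771 and was at 110 and 111 CPM in MC38 (at least 948-fold). Each of these genes also had no count in the E0771 libraries with the RIG-I agonist. The receptor phosphatase gene Ptprk (100 and 98.3 CPM), the growth arrest gene Gas1 (97 and 90.3 CPM) and Nrn1 (93.3 and 94.4 CPM) were further genes of MC38 with no counts in the E0771 control libraries. Genes read in E0771 with no counts in MC38 were lower on the whole. Nptx1, a neuronal pentraxin, was at 70.6 and 63.3 CPM in E0771 (at least 660-fold higher), and Entpd2, an ecto-nucleotidase, at 50.3 and 99.6 CPM (at least 732-fold, with the call lost without a filter, adjusted p = 0.0901). Dpp4, the surface peptidase CD26, was at 19 and 29.2 CPM in E0771 (at least 236-fold). Tdrd1, a germline piRNA gene, was at 47.5 and 45.2 CPM (at least 457-fold), and another germline gene, the X-linked Tex11, was at 53.9 and 66.3 CPM in E0771 and 0.375 and 0.295 CPM in MC38 (log2 difference 7.39, SE 0.24, adjusted p = 8.72e-05). Germline genes did not go with E0771 as a list: of 9 germline and cancer-testis genes tested, 3 were higher in E0771 and 6 in MC38, with a median difference of -2.32.

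Of the chromosomes other than Y, X had the median farthest to the MC38 side. Of 444 X-linked genes tested, 242 (54.5%) were higher in MC38 and 103 (23.2%) in E0771, with a median difference of -0.67. The same X-linked genes had a median of -0.70 in the RIG-I agonist libraries. On the autosomes the median ran from -0.31 on chromosome 13 to 0.46 on chromosome 12, where 230 of 449 genes were higher in E0771. On Y, 6 genes were tested, 3 were higher in MC38 and the median was -1.92. Among X-linked genes at 5 CPM or more in MC38, 26 of 327 (7.95%) had no counts in E0771, against 175 of 9416 (1.86%) elsewhere. They included Col4a5, a collagen of basement membranes (94 and 97.3 CPM in MC38, at least 818-fold higher), the kinase gene Rps6ka6 (93 and 95.9 CPM, at least 808-fold) and the ubiquitin ligase gene Rnf128 (92.9 and 90.9 CPM, at least 788-fold). The division by chromosome was made after the values were seen, and no test was made of it.

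Transcripts of interferon-stimulated genes were mostly higher in MC38 at rest. Whether this came from a standing interferon signal or from a response to the control agonist was not tested. Of 74 antiviral interferon-stimulated genes tested, 66 were higher in MC38, 2 were higher in E0771 and 6 were not called, with a median difference of -2.05 against -0.02 over all genes. At least 4-fold differences were found for 40 of the 66. The median level of these genes was 15.4 CPM in E0771 and 69.8 CPM in MC38. The count higher in MC38 was 66 and 67 without E0771 replicates 1 and 2 and 60 without either MC38 replicate.

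Rsad2, which encodes the antiviral enzyme viperin, was at 24.4 and 12.5 CPM in E0771 and 427 and 421 CPM in MC38 (log2 difference -4.57, SE 0.32, adjusted p = 0.000401). Oasl1, an oligoadenylate synthetase-like protein, was at 8.12 and 5.58 CPM in E0771 and 203 and 195 CPM in MC38 (log2 difference -4.91, SE 0.18, adjusted p = 0.000101). Isg15, a ubiquitin-like modifier, was at 19.9 and 9.89 CPM in E0771 and 111 and 112 CPM in MC38 (log2 difference -2.95, SE 0.31, adjusted p = 0.00109). In all 3 the MC38 replicates were nearly equal and both far above E0771, while E0771 replicate 1 was above replicate 2. Ifit1, which binds viral RNA caps, was at 15.3 and 8.94 CPM in E0771 and 74.6 and 72.3 CPM in MC38 (log2 difference -2.65, SE 0.24, adjusted p = 0.000785). Zbp1, which detects left-handed nucleic acid and can trigger cell death, was at 0.228 and 0.399 CPM in E0771 and 22 and 21.3 CPM in MC38 (log2 difference -6.13, SE 0.26, adjusted p = 0.000122). Usp18, which removes Isg15 and dampens the receptor, was at 27.7 and 13.6 CPM in E0771 and 97.1 and 90.8 CPM in MC38 (log2 difference -2.23, SE 0.31, adjusted p = 0.00286). The smallest differences among the named genes of the list were those of Mx1, at 4.55 and 2.79 CPM against 11.9 and 14.5 CPM (log2 difference -1.89, SE 0.28, adjusted p = 0.00348), and of the tetherin gene Bst2, at 188 and 121 CPM against 344 and 339 CPM (log2 difference -1.19, SE 0.21, adjusted p = 0.00618). Ifitm1, which blocks viral entry, had 2 counts in E0771 and was at 31.1 and 29.3 CPM in MC38, a ratio of 390 with a counting interval from 108 to 3220.

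The 2 genes of the list higher in E0771 were Apobec3 and Slfn2. Apobec3, a cytidine deaminase that restricts retroviruses, was at 3760 and 3020 CPM in E0771 and 797 and 843 CPM in MC38 (log2 difference 2.00, SE 0.16, adjusted p = 0.000574). Slfn2, a schlafen gene, was at 10.8 and 5.35 CPM in E0771 and 0.813 and 0.221 CPM in MC38 (log2 difference 3.85, SE 0.64, adjusted p = 0.00483). Leaving out E0771 replicate 1 or 2 raised the number of list genes higher in E0771 from 2 to 4 or 5, and the absence of a filter on low counts raised it to 4.

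The promoters of 5 genes are shown for the element through which interferon-activated factors are known to act; they were picked as genes with a wide difference at rest whose windows hold its letters. The windows of Oasl1, H2-K1, Tap1 and Psmb9, which also differed, held no match. They are RefSeq windows of GRCm38.p6 of the same kind as above, with each core of the ISRE (GAAA, any 2 bases, GAAA) in capitals on whichever strand it lies. Their coordinates are chr12:26456403-26456702 (minus strand) for Rsad2, chr4:156200769-156201068 (minus) for Isg15 and chr19:34640639-34640938 (plus) for Ifit1. Those of Gbp2 and Cxcl10, described further on, are chr3:142620413-142620712 (plus) and chr5:92348840-92349139 (minus).
Rsad2: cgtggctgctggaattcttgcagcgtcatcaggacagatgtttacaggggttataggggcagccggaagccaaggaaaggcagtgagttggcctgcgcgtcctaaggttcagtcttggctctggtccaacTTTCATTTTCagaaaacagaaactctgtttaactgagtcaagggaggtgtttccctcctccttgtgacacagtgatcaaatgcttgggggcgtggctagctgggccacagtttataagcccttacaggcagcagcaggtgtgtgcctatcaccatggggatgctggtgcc
Isg15: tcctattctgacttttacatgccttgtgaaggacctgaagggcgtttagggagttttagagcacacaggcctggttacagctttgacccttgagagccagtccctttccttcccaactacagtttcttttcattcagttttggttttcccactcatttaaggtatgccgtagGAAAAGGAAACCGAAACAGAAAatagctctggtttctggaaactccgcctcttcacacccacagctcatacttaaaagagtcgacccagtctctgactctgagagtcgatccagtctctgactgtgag
Ifit1: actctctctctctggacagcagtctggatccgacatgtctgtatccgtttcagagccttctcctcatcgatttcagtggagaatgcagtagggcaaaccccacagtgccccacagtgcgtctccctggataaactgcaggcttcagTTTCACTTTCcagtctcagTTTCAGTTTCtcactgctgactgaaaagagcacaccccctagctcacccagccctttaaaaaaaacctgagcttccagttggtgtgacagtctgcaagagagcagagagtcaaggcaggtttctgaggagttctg
Gbp2: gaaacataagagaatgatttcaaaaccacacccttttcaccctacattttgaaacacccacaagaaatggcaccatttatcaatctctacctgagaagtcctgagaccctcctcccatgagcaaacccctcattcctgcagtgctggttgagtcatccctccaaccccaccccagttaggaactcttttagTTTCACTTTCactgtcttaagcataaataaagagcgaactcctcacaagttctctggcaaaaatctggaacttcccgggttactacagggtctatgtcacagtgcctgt
Cxcl10: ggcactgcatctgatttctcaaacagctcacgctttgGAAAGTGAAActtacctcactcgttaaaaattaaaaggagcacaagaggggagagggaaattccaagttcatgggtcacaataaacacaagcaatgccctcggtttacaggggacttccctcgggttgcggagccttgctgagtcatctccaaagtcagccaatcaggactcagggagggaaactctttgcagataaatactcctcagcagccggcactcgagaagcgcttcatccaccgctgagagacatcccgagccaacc
Isg15 held 3 overlapping matches in a single run that begins at position -78 from the start, and Ifit1 held 2. The single match of Cxcl10 begins at -213, that of Rsad2 at -120 and that of Gbp2 at -59. Over the lists, 31 of 63 antiviral genes with a promoter in the table (49.2%) and 10 of 12 interferon-inducible GTPases (83.3%) held the letters, against 1079 of all 27025 genes with a promoter (3.99%). Of the antiviral genes called higher in MC38, 24 of 53 (45.3%) held them, as did 3 of 4 that were not called (75%), and a window without the letters says nothing of other elements.

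Interferon-inducible GTPases, which attack the vacuoles of intracellular pathogens, followed the antiviral genes. Of 16 tested, 12 were higher in MC38 and 4 were not called, and the median difference was -2.87. Gbp2 was at 3.26 and 2.63 CPM in E0771 and 58.4 and 58.4 CPM in MC38 (log2 difference -4.35, SE 0.14, adjusted p = 8.68e-05). Igtp was at 8.58 and 5.11 CPM in E0771 and 65.1 and 61.6 CPM in MC38 (log2 difference -3.26, SE 0.23, adjusted p = 0.000407), and Irgm1, a regulator of the family, at 49.6 and 34.2 CPM against 166 and 166 CPM (log2 difference -2.04, SE 0.18, adjusted p = 0.000741). The lines did not overlap in any of these 3 genes, which holds for every gene called. Members of this family, of the H2 genes and of the Raet1 genes have near-identical copies, between which estimated counts can be divided, so the share of each copy is uncertain.

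Transcripts of MHC class I and antigen processing genes were mostly lower in E0771. Of 28 genes tested, 25 were higher in MC38 and 1 in E0771, with a median difference of -1.64. H2-K1, a classical class I heavy chain, was at 68.9 and 32.6 CPM in E0771 and 1080 and 1040 CPM in MC38 (log2 difference -4.43, SE 0.38, adjusted p = 0.000666). The other classical heavy chain gene, H2-D1, was at 660 and 395 CPM in E0771 and 1130 and 1140 CPM in MC38 (log2 difference -1.16, SE 0.25, adjusted p = 0.012). Tapbp, which loads peptide onto class I, was at 98.1 and 52.2 CPM in E0771 and 827 and 834 CPM in MC38 (log2 difference -3.52, SE 0.32, adjusted p = 0.00075). Both E0771 libraries were below both MC38 libraries for these 3 genes, as for every gene called higher in MC38. Tap1, the peptide transporter, was at 59.3 and 38.5 CPM in E0771 and 279 and 282 CPM in MC38 (log2 difference -2.57, SE 0.21, adjusted p = 0.0006). The immunoproteasome gene Psmb9 was at 6 and 2.31 CPM in E0771 and 17.6 and 18.6 CPM in MC38 (log2 difference -2.17, SE 0.41, adjusted p = 0.00748). B2m, the invariant light chain, was not called (log2 difference -0.21, SE 0.32, adjusted p = 0.593). Its E0771 values of 689 and 349 CPM lay on both sides of the MC38 values of 590 and 565 CPM. The difference was -0.76 without E0771 replicate 1 and 0.20 without E0771 replicate 2. Mr1, which presents vitamin metabolites, was the gene higher in E0771, at 22.8 and 49.1 CPM against 7.38 and 8.55 CPM (log2 difference 2.12, SE 0.40, adjusted p = 0.00746), a call lost without MC38 replicate 1 (adjusted p = 0.0707) or 2 (0.0594) and without a filter on low counts (0.062).

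Signalling genes were mixed in direction. Of 26 genes of interferon receptors, kinases, factors and inhibitors tested, 11 were higher in MC38 and 10 in E0771, with a median difference of 0.07. Stat2 was at 38.1 and 20.6 CPM in E0771 and 124 and 132 CPM in MC38 (log2 difference -2.17, SE 0.28, adjusted p = 0.00219). Irf1, which drives class I and GTPase genes, was at 21.3 and 18.9 CPM in E0771 and 118 and 115 CPM in MC38 (log2 difference -2.58, SE 0.10, adjusted p = 0.00011). Irf9, the DNA-binding partner of Stat2, was at 40.7 and 26.3 CPM in E0771 and 71.7 and 73 CPM in MC38 (log2 difference -1.16, SE 0.21, adjusted p = 0.00621). All 3 are themselves interferon-stimulated genes. The receptor genes were close in level and not called: Ifnar1 was at 43 and 42 CPM in E0771 and 34.4 and 36.7 CPM in MC38 (log2 difference 0.20, SE 0.09, adjusted p = 0.113), and Ifnar2 at 20.8 and 22.3 CPM against 17 and 17 CPM (log2 difference 0.29, SE 0.12, adjusted p = 0.0822). Ifnar1 was called without E0771 replicate 1 or 2, and Ifnar2 without E0771 replicate 1. Those fits drew their spread from the MC38 pair alone, with a biological coefficient of variation of 0.029 against 0.131 in the main fit. They cannot decide whether the lines differed in these receptor genes. Socs3, a feedback inhibitor of cytokine receptors, was higher in E0771, at 29.9 and 40.3 CPM against 9.94 and 11.5 CPM (log2 difference 1.66, SE 0.19, adjusted p = 0.0016). Ptpn6, a phosphatase that restrains JAK signalling, was at 8.12 and 9.65 CPM in E0771 and 0.25 and 0.295 CPM in MC38 (log2 difference 4.94, SE 0.33, adjusted p = 0.000348). Without MC38 replicates 1 and 2 the count of this list higher in E0771 was 5 and 6, and without replicate 1 the count higher in MC38 was 7. The interferon gene Ifnb1 had no more than 0.147 CPM in any of the 4 libraries. Of 21 interferon genes 1 could be tested, Ifnz, which was at 0 and 0.239 CPM in E0771 and 1.19 and 1.7 CPM in MC38 (adjusted p = 0.0169), a call lost without MC38 replicate 2 (adjusted p = 0.0853).

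Genes that sense nucleic acids were mixed in direction. Of 22 genes of RNA sensing, 10 were higher in MC38 and 7 in E0771, with a median difference of -0.08. Ddx58, the RIG-I gene itself, was at 63.4 and 34.1 CPM in E0771 and 216 and 213 CPM in MC38 (log2 difference -2.19, SE 0.29, adjusted p = 0.0023). Tlr3, the endosomal receptor for double-stranded RNA, was at 4.1 and 3.99 CPM in E0771 and 62 and 62 CPM in MC38 (log2 difference -3.99, SE 0.11, adjusted p = 7.39e-05), and Ifih1, the MDA5 gene, at 22.1 and 13.5 CPM against 72.1 and 70 CPM (log2 difference -2.05, SE 0.23, adjusted p = 0.00137). The adaptor gene Mavs differed little, at 54.2 and 51.8 CPM in E0771 and 62.7 and 62.8 CPM in MC38 (log2 difference -0.30, SE 0.08, adjusted p = 0.0285), and its call was lost without MC38 replicate 1 (adjusted p = 0.234) or 2 (0.252), in DESeq2 (0.0677) and without a filter (0.0708). The kinase gene Tbk1, downstream of Mavs, was higher in E0771, at 81.3 and 73.3 CPM against 38.6 and 37.8 CPM (log2 difference 0.97, SE 0.09, adjusted p = 0.000916). Without either MC38 library the number of RNA sensing genes higher in E0771 was 3.

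The pair of genes at the head of DNA sensing went in opposite directions. Cgas, which makes the second messenger on binding DNA, was at 8.27 and 7.58 CPM in E0771 and 48.1 and 48.3 CPM in MC38 (log2 difference -2.65, SE 0.11, adjusted p = 0.000121). Tmem173, the STING gene that receives it, was at 47.8 and 64.9 CPM in E0771 and 15.8 and 12.8 CPM in MC38 (log2 difference 1.93, SE 0.20, adjusted p = 0.0011). Over 22 genes of cytosolic DNA sensing, 11 were higher in MC38 and 9 in E0771, the latter count falling to 5 and 3 without MC38 replicates 1 and 2.

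**Figure D4:**
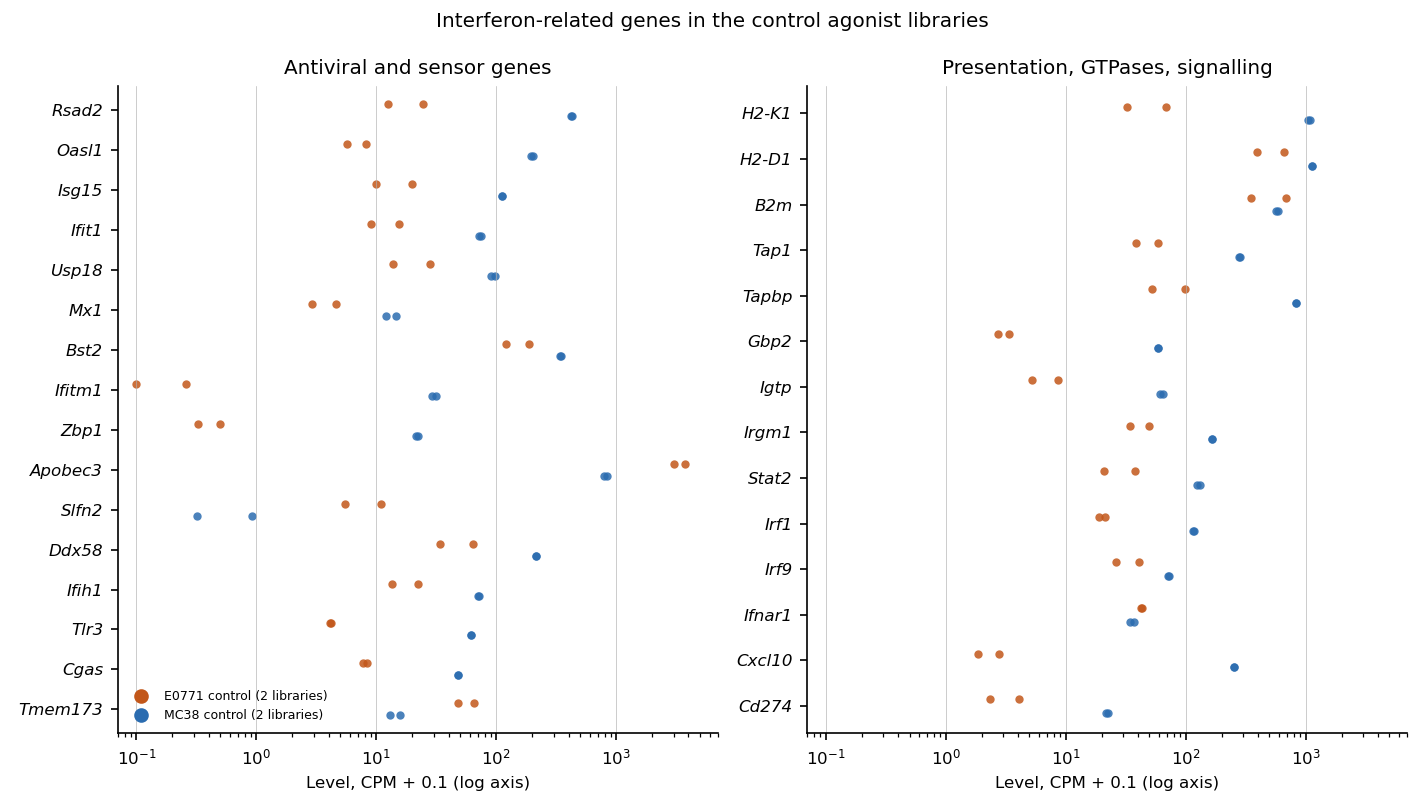
Each point is 1 control agonist library of E0771 (orange) or MC38 (blue), with the level in CPM plus 0.1 on a log axis. The MC38 replicates nearly coincide and lie to the right of E0771 for most genes, whereas Apobec3, Slfn2 and Tmem173 lie to the left in MC38. The E0771 points of B2m lie on both sides of its MC38 points, and Ifnar1 is close in both lines.

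Chemokine genes were lower in E0771, with a summed level of 46.8 and 19.1 CPM against 607 and 585 CPM in MC38. Of 11 tested, 10 were higher in MC38 and 1 was not called, with a median difference of -3.93, and fewer were called without MC38 replicate 1. With a minimum count of 50 only 6 could be tested, and all 6 were higher in MC38. Cxcl10, which draws T cells through CXCR3, was at 2.66 and 1.76 CPM in E0771 and 255 and 252 CPM in MC38 (log2 difference -6.88, SE 0.18, adjusted p = 7.06e-05). Ccl5, another T cell attractant, was at 2.73 and 1.83 CPM in E0771 and 20.8 and 17.6 CPM in MC38 (log2 difference -3.12, SE 0.24, adjusted p = 0.000507). Cxcl1, which attracts neutrophils, had 1 count in E0771 and was at 26.4 and 23.1 CPM in MC38, a ratio of 639 with a counting interval from 114 to 25300. These 3 genes separated the lines without overlap, as did every gene called. Ccl2, the monocyte attractant, was at 27.8 and 6.38 CPM in E0771 and 258 and 248 CPM in MC38 (log2 difference -3.93, SE 0.62, adjusted p = 0.00414), and the call was lost without MC38 replicate 1 (adjusted p = 0.0992) or 2 (0.121) and without a filter (0.0982).

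Surface ligands for immune cells were divided between the lines. Cd274, the checkpoint ligand PD-L1, was at 4.02 and 2.23 CPM in E0771 and 22.4 and 21.6 CPM in MC38 (log2 difference -2.86, SE 0.27, adjusted p = 0.000884). Vcam1, an adhesion ligand of leukocytes, was at 0.455 and 0.239 CPM in E0771 and 41.9 and 48.8 CPM in MC38 (log2 difference -7.03, SE 0.25, adjusted p = 9.55e-05). Tnfsf9, the 4-1BB ligand, had no counts in E0771 and was at 18.1 and 18.2 CPM in MC38, at least 155-fold higher in MC38. Neither E0771 library reached the MC38 range for these 3 ligands, which adds nothing to a call. E0771 carried more of Vsir, the checkpoint protein VISTA, at 27.2 and 50.7 CPM against 0.75 and 0.737 CPM (log2 difference 5.64, SE 0.45, adjusted p = 0.000541), and of Cd276, the B7-H3 gene, at 28.6 and 28.2 CPM against 10.8 and 9.81 CPM (log2 difference 1.41, SE 0.12, adjusted p = 0.000679). The list of ligands for NK cells had 5 genes tested, of which 4 were higher in E0771 and 1, the adhesion gene Cadm1 (0 and 0.0798 CPM against 3.94 and 4.79 CPM), was higher in MC38. Among the ligands of NKG2D, Ulbp1 was at 52.1 and 58.9 CPM against 14.6 and 10.9 CPM (log2 difference 2.06, SE 0.17, adjusted p = 0.000584), and Raet1e at 35.9 and 38.6 CPM against 10.1 and 11.7 CPM (log2 difference 1.73, SE 0.13, adjusted p = 0.000501). The tetraspanin gene Cd81 was at 0.304 and 0.0798 CPM in E0771 and 209 and 195 CPM in MC38 (log2 difference -10.01, SE 0.24, adjusted p = 7.06e-05). Mesothelin, a surface antigen encoded by Msln, had 1 count in E0771 and was at 266 and 259 CPM in MC38, a ratio of 6750 with a counting interval from 1210 to 267000.

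Beside these results, the E0771 replicates themselves differed in interferon-stimulated genes. Replicate 1 was above replicate 2 for 62 of the 74 antiviral genes (median log2 ratio 0.55), 25 of the 28 class I genes (0.44) and 26 of 27 genes of cholesterol and lipid synthesis (1.26), against 6260 of all 12638 genes (0.01). In MC38 the same median ratios were 0.03, 0.01 and -0.02. The part of this in the line difference was not tested. Of 20 leukocyte markers, 2 were at 1 CPM or more in each line, and their summed level was 18.2 and 13.2 CPM in E0771 and 9.25 and 8.55 CPM in MC38. Ptprc, Cd3e, Itgam and Tyrobp were each under 1 CPM in all 4 libraries, and Lyz2, the lysozyme of myeloid cells, was at 8.8 and 9.25 CPM in E0771 and 1.94 and 2.14 CPM in MC38 (log2 difference 2.09, SE 0.23, adjusted p = 0.0012).

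Lipid synthesis was on the MC38 side too, with less certainty. Of 27 genes of cholesterol and lipid synthesis, 17 were higher in MC38 and 10 were not called, with a median difference of -1.06. That count was 27 without E0771 replicate 1, 20 without E0771 replicate 2, 7 and 6 without MC38 replicates 1 and 2, and 9 without a filter on low counts, and without E0771 replicate 2 there were 3 genes higher in E0771. Scd1, which desaturates fatty acids, was at 367 and 335 CPM in E0771 and 711 and 722 CPM in MC38 (log2 difference -1.08, SE 0.10, adjusted p = 0.000806). Outside lipid synthesis, the endoplasmic reticulum chaperone gene Hspa5 was at 600 and 550 CPM in E0771 and 2180 and 2150 CPM in MC38 (log2 difference -1.96, SE 0.12, adjusted p = 0.00027). Amino acid and stress response genes did not lean to MC38 as a list. Of 26 tested, 8 were higher in E0771 and 6 in MC38, with a median difference of 0.09.

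Growth genes were near the background. Of 52 growth factor receptor and tumour genes tested, 18 were higher in E0771 and 19 in MC38, with a median difference of -0.03. Myc, the growth-promoting transcription factor, was at 436 and 446 CPM in E0771 and 83.9 and 86.7 CPM in MC38 (log2 difference 2.32, SE 0.09, adjusted p = 0.000108). Ccne1, cyclin E1, was at 66.1 and 56 CPM in E0771 and 12.3 and 14.4 CPM in MC38 (log2 difference 2.15, SE 0.14, adjusted p = 0.000347). Mki67, the proliferation marker, went the other way, at 163 and 140 CPM in E0771 and 656 and 686 CPM in MC38 (log2 difference -2.20, SE 0.12, adjusted p = 0.000199). Over 30 cell cycle genes, 15 were higher in MC38 and 4 in E0771, with 9 and 1 without either MC38 library and 8 higher in E0771 without E0771 replicate 2. The cell cycle inhibitor gene Cdkn2a had no counts in E0771 and was at 2.81 and 3.54 CPM in MC38 (at least 27-fold higher), and its neighbour Cdkn2b had no counts in E0771 and was at 6.75 and 7.89 CPM in MC38 (at least 62.3-fold). The Wnt ligand gene Wnt7b was at 111 and 126 CPM in E0771 and 0.25 and 0.295 CPM in MC38 (log2 difference 8.68, SE 0.19, adjusted p = 6.09e-05), while the Wnt receptor gene Fzd7 had no counts in E0771 and was at 61.8 and 66.4 CPM in MC38 (at least 548-fold higher).

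The line difference was then read in the RIG-I agonist libraries, which are 2 further libraries per line. Of 7809 control agonist calls that could be tested with the RIG-I agonist, 6324 (81%) were called in the same direction and 18 in the opposite one. The replicate differences of E0771 correlated at 0.521 across genes between agonists. Its RIG-I agonist libraries may therefore share deviations with its control libraries, and the agreement is not shown to be independent of them. Over all genes 3500 of 12613 (27.7%) were higher in E0771 with the RIG-I agonist and 3781 (30%) in MC38, 57.7% in either direction. Krt8 was at 227 and 203 CPM in E0771 and 0.0793 and 0.0523 CPM in MC38 with the RIG-I agonist, and Fn1 at 0.305 and 0.142 CPM against 519 and 537 CPM. Without MC38 RIG-I replicates 1 and 2 the counts were 1824 and 1807 higher in E0771 and 2184 and 2063 higher in MC38.

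The interferon-stimulated genes were where the difference narrowed. With the RIG-I agonist the median level of the antiviral list was 174 CPM in E0771 and 181 CPM in MC38, and of 77 genes tested 14 were higher in E0771, 29 in MC38 and 34 were not called. The counts were 31 and 34 without E0771 RIG-I replicate 1, 19 and 43 without E0771 RIG-I replicate 2, 8 and 18 without MC38 RIG-I replicate 1 and 8 and 17 without MC38 RIG-I replicate 2. The median line difference of the 74 genes tested with both agonists was -2.05 at rest and -0.09 with the RIG-I agonist. In the interaction of line and agonist, which tests whether the line difference changed between agonists, 34 of 77 antiviral genes were called, all toward E0771, against 85 of all 13082 genes in that direction (0.65%), 2 in the other (0.0153%) and 0.665% in either. The interaction calls were few when any MC38 library was left out (4 genes in all, 2 of them on the antiviral list), whereas without an E0771 library the antiviral count was 32 to 45. DESeq2 called 60 antiviral genes in the interaction and the fit without a filter 64.

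Single genes show how far the order of the lines changed. Isg15 was at 425 and 428 CPM in E0771 and 378 and 363 CPM in MC38 with the RIG-I agonist (log2 difference 0.19, SE 0.09, adjusted p = 0.131), after -2.95 at rest. Ifit1 was at 532 and 623 CPM in E0771 and 299 and 306 CPM in MC38 (log2 difference 0.92, SE 0.11, adjusted p = 0.00263), now higher in E0771, as were Mx1 (80.7 and 151 CPM against 47 and 46 CPM) and Usp18 (587 and 728 CPM against 333 and 327 CPM). Rsad2 remained higher in MC38, at 659 and 886 CPM in E0771 and 1440 and 1500 CPM in MC38 (log2 difference -0.95, SE 0.17, adjusted p = 0.00777). All 18 genes called in opposite directions were higher in MC38 at rest and in E0771 with the RIG-I agonist. Cxcl10 kept a wide gap, at 117 and 85.4 CPM in E0771 and 1150 and 1180 CPM in MC38 (log2 difference -3.54, SE 0.19, adjusted p = 0.000352). H2-K1 also did, at 314 and 260 CPM against 1920 and 1870 CPM (log2 difference -2.74, SE 0.14, adjusted p = 0.000323), and of 28 class I genes 19 were higher in MC38 with the RIG-I agonist and 1 in E0771, the first count being 12 without either MC38 library. Tlr3 was at 34.3 and 31.4 CPM in E0771 and 185 and 194 CPM in MC38 (log2 difference -2.55, SE 0.10, adjusted p = 0.000199).

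**Figure D5:**
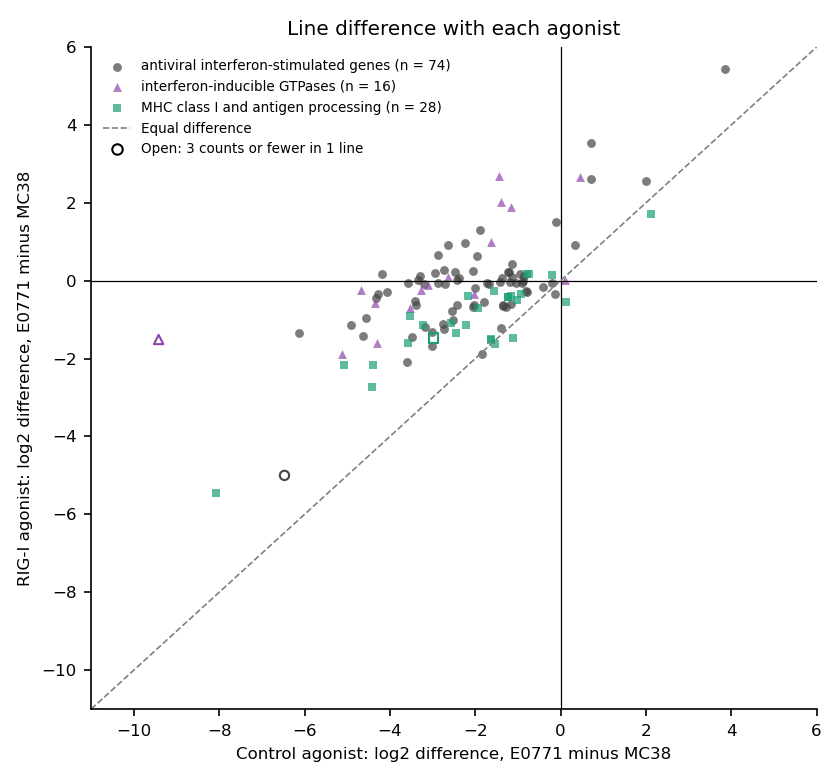
Each point is a gene, placed by its log2 difference between E0771 and MC38 with the control agonist (horizontal) and with the RIG-I agonist (vertical), from separate libraries, with open symbols for genes with 3 counts or fewer in 1 line at rest, whose fitted value is no bound. Most antiviral genes and GTPases lie left of 0 at rest and gather around 0 on the vertical axis (antiviral medians of -2.05 and -0.09), and class I genes stay mostly below 0.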

How the data were processed

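RNA-seq was read from the deposited tables, 1 for each line, which hold estimated counts per gene made by the authors; Salmon, DESeq2 and GRCm38 are named in the submitters' processing notes, and the annotation is not given in the sources used here. The labels' protocols describe stranded libraries of poly(A)-selected RNA. The design assumed counts, and since the deposited values are estimated counts they were rounded to whole numbers. Of 34866 gene IDs, 34652 were matched to symbols after the version was dropped and 214 were not.

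Genes passed edgeR's filter at a minimum count of 10, were scaled by the trimmed mean of M-values and tested with edgeR's quasi-likelihood test (edgeR 4.0.16, limma 3.58.1, R 4.3.3) on the 4 control agonist libraries, with Benjamini-Hochberg adjustment over all genes tested and a threshold of 0.05. The RIG-I agonist libraries were fitted in the same way, and the interaction of line and agonist on all 8 libraries of the lines, with a prior count of 0.125 in fitted differences. A gene with no counts in 1 line is given as a lower bound against a floor of 3 counts over the group, and one with 1 to 3 counts as a ratio with its exact 95% counting interval. Neither covers more than counting error. Depth per library is given in the report.

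Gene lists (33, with 983 of 991 genes found) were used, and the text describes those that bear on tissue identity, interferon and growth. The named genes are list anchors, up to 3 called genes per list and direction at 5 CPM or more, and the 12 largest differences per direction at 20 CPM or more. Ephb3, Cadm1, Ifnz, Lyz2 and the X-linked examples were chosen after their values were seen. The libraries, lists and genes were chosen with earlier results of these data known. On simulated data with the same genes, edgeR recovered 79% of 2-fold and 100% of 4-fold changes and called 6 unchanged genes of 12638. The simulation changed 100 genes at each size and gave every library the same spread. In the data the biological coefficient of variation was 0.183 in E0771 and 0.029 in MC38, and 63.2% of genes were called. The simulated rates therefore do not describe this comparison. Alternatives were DESeq2 1.42.0, limma voom with weights per group, other size factors, other filters, protein-coding genes only, 8 libraries sharing 1 spread, a replicate block and leaving out each library. Differences of at least 4-fold, genes with no counts in 1 line, chromosomes and replicate order within a line were added after seeing the data. Promoter letters were searched with Python 3.11.15. CT26 was not analysed here, and the values of some list genes are not reported here.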

Additional observations from a re-analysis of the deposited data

Results flagged for a closer look

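For 16 of the genes named above the line difference itself changed between agonists, by edgeR's test of the interaction of line and agonist, in which 87 of 13082 genes were called (0.665%). Each value is the log2 difference between E0771 and MC38 with the RIG-I agonist minus that with the control agonist, and all 16 were above 0. The antiviral genes were Zbp1 at 4.81 (adjusted p = 0.00113), Oasl1 at 3.79 (0.00113), Rsad2 at 3.65 (0.016), Ifit1 at 3.58 (0.00686), Usp18 at 3.23 (0.0222), Mx1 at 3.20 (0.043) and Isg15 at 3.15 (0.0163). Among the GTPases, Gbp2 was at 3.79 (0.00113), Igtp at 3.03 (0.0147) and Irgm1 at 1.72 (0.043). The chemokine genes Ccl5 and Cxcl10 were at 4.11 (0.00686) and 3.36 (0.00686). The sensor genes Ifih1 and Tlr3 were at 2.33 (0.0209) and 1.46 (0.00823), the transcription factor gene Irf1 at 1.55 (0.0138), and the class I loading gene Tapbp at 2.62 (0.0329). Only 4 genes of all tested were called when any single MC38 library was left out.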

How the results depend on the processing

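The number of genes higher in E0771 at rest ran from 2158 to 4999 and the number higher in MC38 from 2535 to 5260 when a library was left out. With the RIG-I agonist the ranges were 1807 to 4878 and 2063 to 5230, and the interaction calls ran from 4 to 152. DESeq2 called 236 genes in the interaction and the fit without a filter on low counts 495, against 87. The other alternatives kept each of these counts within 1.5 times. With 2 libraries per group, leaving out 1 leaves a lone library that is assumed to vary like those of the other line. The MC38 replicates are the tighter pair. The biological coefficient of variation was 0.197 without either MC38 library, 0.029 without either E0771 library and 0.131 in the main fit. Calls kept without an E0771 library were thus weighed against a smaller spread. The part of this in the lower counts without an MC38 library was not tested. Of 110 named genes called at rest, 6 lost the call without an MC38 library (Sox9, Vim, Mr1, Mavs and Ccl2 without either, Ifnz without replicate 2) and 0 without an E0771 library, 4 lost it without a filter and 1 in DESeq2. The log2 difference of B2m was -0.21 over all 4 libraries, -0.76 without E0771 replicate 1 and 0.20 without E0771 replicate 2.

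The replicate numbers of the labels were not shown to pair the lines: the replicate differences of E0771 and MC38 correlated at 0.014 across genes. Between agonists they correlated at 0.521 within E0771 and -0.043 within MC38, so that the E0771 libraries of the same number deviated together. With the replicate block, 3702 genes were higher in E0771 and 4000 in MC38 at rest, 3451 and 3702 with the RIG-I agonist, and 106 were called in the interaction. Vim (adjusted p = 0.0655), Mavs (0.0587) and Ccl2 (0.0761) were not called with the block.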
